A study of Arabidopsis thaliana with 18 samples.

Results

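Root transcripts of the Arabidopsis thaliana line chl1-12 were compared with those of the line chl1-5, both altered in the nitrate transporter NRT1.1. The 3 arrays of each line were picked by sample title, which gave 6 of the 18 arrays measured. The study asked how different mutations of NRT1.1 affect the root transcriptome when ammonium nitrate is plentiful. It also measured the lines chl1-9, T101A and T101D and the wild type col, with 3 Affymetrix arrays each. Plants of every genotype were grown in vitro for 8 days on 10 mM NH4NO3, TRIzol was used to extract total RNA of the roots, and the 3' IVT Express kit to label it with biotin.

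NRT1.1, also called CHL1 and NPF6.3, takes up nitrate into the root and acts as a sensor through which nitrate sets the expression of other genes. It also moves auxin, and phosphorylation of its threonine T101 switches its affinity for nitrate. chl1-5 is known as a deletion that removes the gene, whereas the labels do not describe the lesion of chl1-12. chl1-9 is known as a point mutant. The names T101A and T101D stand for forms of the protein in which T101 cannot be phosphorylated or mimics phosphorylation, and the labels do not give the background that carries them. They also do not say whether the arrays of a genotype came from separate cultures or how many plants each array pooled, so the p-values below cover the spread among these samples alone, and that spread may be technical. NRT1.1 itself had no named probe set. Whether an unnamed probe set measures it cannot be told from the annotation used here, so its transcript is not analysed by name.

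Few root transcripts differed between the 2 lines, and those that did were higher in chl1-12. Of 22746 probe sets tested, 9 differed between chl1-12 and chl1-5 at a limma adjusted p under 0.05, which is 0.0396% of them, and all 9 were higher in chl1-12. Of these 9, 7 have a single listed gene and 2 are unnamed. Among probe sets lower in chl1-12, the smallest adjusted p was 0.197. At an unadjusted p under 0.05 there were 938 probe sets (4.12%), 436 of them higher and 502 lower in chl1-12. Median intensities of all 18 arrays lay between 185 and 197. Correlations across probe sets ranged from 0.986 to 0.989 between an array of chl1-12 and one of chl1-5, against 0.987 to 0.989 within either line.

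Levels are given as intensity, scaled by the authors to a common mean of 500 on every array. Differences are given as log2(intensity + 16), which understates the change of dim probe sets. Fold differences, and intervals said to lie within a 2-fold difference, are on this scale too. For a dim probe set such an interval can hold a much larger change in intensity. On each array 16.5% to 19.5% of values were under 16. Over all probe sets the median difference was -0.0018, and the 5th and 95th percentiles were -0.36 and 0.31. A difference of at least 1 in either direction, whatever its p, was seen for 25 probe sets (0.11%), and 8 of these were among the 9. The arrays of chl1-12 and chl1-5 did not overlap for 2517 probe sets, or 11.1%, and all 9 were among these.

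**Figure D1:**
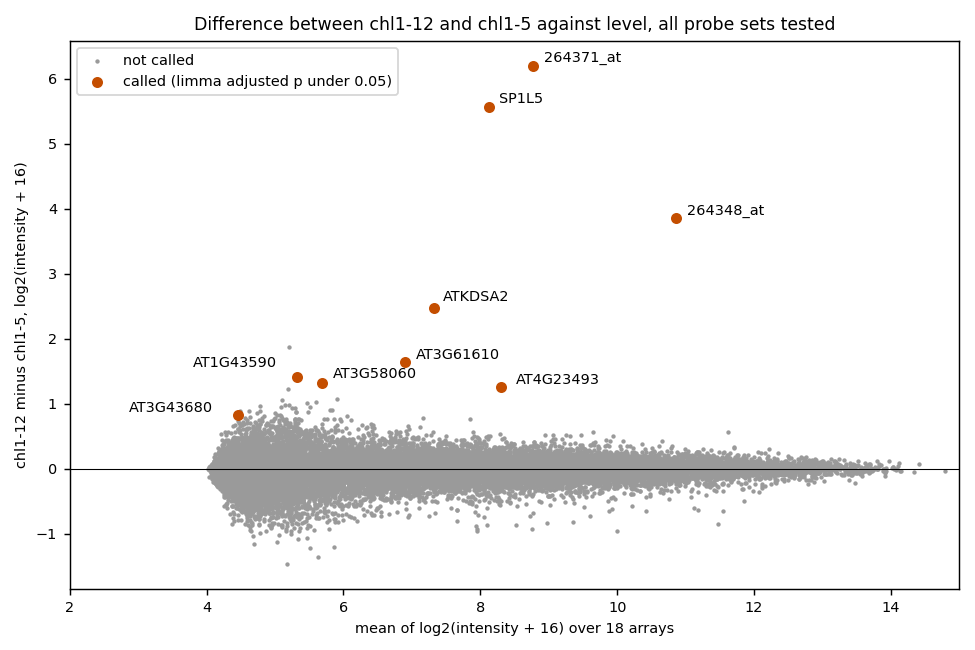
Difference between chl1-12 and chl1-5 on the log2(intensity + 16) scale (vertical axis) against the mean level over 18 arrays on the same scale (horizontal axis), 1 point per probe set, with the 9 called probe sets named. The 9 lie above 0, at 0.82 to 6.20, while 90% of all probe sets lie between -0.36 and 0.31.

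Against col, each line differed far more often. The test called 341 probe sets for chl1-12 (1.5%), of which 214 (0.941%) were higher and 127 (0.558%) lower. It called 495 for chl1-5 (2.18%), of which 308 (1.35%) were higher and 187 (0.822%) lower. Both comparisons use the same 3 col arrays, so their values are set side by side below and their overlap is not tested. chl1-12 differed from chl1-9 at 40 probe sets (0.176%), from T101A at 10 (0.044%) and from T101D at 42 (0.185%). chl1-5 differed from chl1-9 at 54 (0.237%), from T101A at 1 (0.0044%) and from T101D at 99 (0.435%).

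Of the 9 called probe sets, 3 were near the wild-type level in chl1-12 and low in chl1-5, T101A and T101D. The named members are ATKDSA2 and AT3G61610. ATKDSA2 (AT1G16340, chromosome 1) encodes a KDO-8-phosphate synthase, which makes the precursor of a sugar acid found in cell wall pectin. AT3G61610 (chromosome 3) encodes a protein of the galactose mutarotase family, whose members interconvert the ring forms of sugars.

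ATKDSA2 had intensities of 362, 378 and 359 on the chl1-12 arrays, against 50.1, 48.0 and 62.4 on the chl1-5 arrays. The arrays of the 2 lines did not overlap, and the spread within each was small beside the gap between them. The difference was 2.47 ± 0.14 (log2 ± SE, limma adjusted p = 3.07e-07), or 5.52-fold. Mean levels were 366 ± 10.2 in chl1-12, 53.5 ± 7.77 in chl1-5, 373 ± 52.3 in chl1-9, 47.3 ± 11.4 in T101A, 49.5 ± 7.75 in T101D and 392 ± 25.7 in col (SD, n = 3 each). The 6 genotypes thus fell into a bright set of chl1-12, chl1-9 and col and a dim set of chl1-5 and the T101 lines, with no array in between. Against col the difference was -0.09 for chl1-12, with a 95% confidence interval of -0.39 to 0.21, and -2.56 for chl1-5 (adjusted p = 1.23e-07). Within the dim set, chl1-5 differed from T101A by 0.15 and from T101D by 0.09, which did not pass the test (adjusted p = 0.827 and 0.923).

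AT3G61610 followed the same order. It had 168, 183 and 200 on the chl1-12 arrays, against 42.3, 53.8 and 48.5 on the chl1-5 arrays. The 2 lines were again apart on every array, by 1.64 ± 0.15 (log2 ± SE, limma adjusted p = 0.000138), or 3.11-fold. Means were 184 ± 16.1 in chl1-12, 48.2 ± 5.78 in chl1-5, 174 ± 27.3 in chl1-9, 58.9 ± 18.05 in T101A, 52.1 ± 3.89 in T101D and 222 ± 23.3 in col (SD, n = 3 each). Against col, chl1-12 differed by -0.25 (interval -0.58 to 0.08) and chl1-5 by -1.89 (adjusted p = 1.3e-05).

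The third of the set, the unnamed probe set 264371_at, showed the largest difference of all probe sets between the 2 lines. Its intensities were 5207, 4901 and 5013 in chl1-12, against 40.0, 39.0 and 89.6 in chl1-5. All 3 chl1-12 arrays were bright and all 3 chl1-5 arrays dim, a difference of 6.20 ± 0.32 (log2 ± SE, limma adjusted p = 1.99e-07), or 73.5-fold. The other genotypes averaged 3660 ± 749 in chl1-9, 16.3 ± 6.46 in T101A, 24.5 ± 17.99 in T101D and 4703 ± 246 in col (SD, n = 3 each). The chl1-12 level differed from col by 0.10, with an interval of -0.59 to 0.79. Over the 18 arrays its pattern was most like those of ATKDSA2 (Pearson r = 0.989), AT3G61610 (0.956) and the unnamed 261690_at (0.828). These correlations are descriptions, since the points share genotypes and the split between bright and dim lines carries them.

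Another 4 of the called probe sets had a higher mean in chl1-12 than in every other genotype, col included. They are SP1L5, its neighbour AT4G23493, and the pseudogenes AT1G43590 and AT3G43680, the last at low intensity throughout. SP1L5 (AT4G23496, chromosome 4) belongs to the SPIRAL1 family, small proteins that bind microtubules and help cells to elongate in a straight line. It was the gene with the largest difference among those named.

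SP1L5 had intensities of 6400, 5678 and 6585 on the chl1-12 arrays, against 127, 116 and 104 on the chl1-5 arrays. The col arrays gave 260, 192 and 137, so the chl1-12 arrays stood far above both other groups, which lay close together. The difference from chl1-5 was 5.56 ± 0.35 (log2 ± SE, limma adjusted p = 8.2e-07), or 47.3-fold, with a 95% interval of 4.81 to 6.32. Means were 6221 ± 479 in chl1-12, 116 ± 11.4 in chl1-5, 122 ± 79.9 in chl1-9, 112 ± 47.6 in T101A, 170 ± 50.9 in T101D and 196 ± 61.6 in col (SD, n = 3 each). Set against the other genotypes, chl1-12 was higher by 5.65 than chl1-9, by 5.68 than T101A, by 5.09 than T101D and by 4.92 than col, with limma adjusted p between 4.98e-07 and 4.27e-06. chl1-5 differed from col by -0.65, which did not pass the test (adjusted p = 0.461).

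No other member of the SPIRAL1 family was called between the lines. Of 6 family genes 5 had a named probe set. The founding member SPR1 averaged 3242 ± 93.7 in chl1-12 and 3055 ± 20.4 in chl1-5 (SD, n = 3 each), a difference of 0.08 with an interval of -0.09 to 0.26. SP1L3 differed by 0.02, SP1L4 by -0.20 and SP1L2 by 0.45. SP1L2 was lower than col in chl1-5, by 1.06 on the log2 scale (limma adjusted p = 0.0331), and by 0.61 in chl1-12 (adjusted p = 0.322).

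AT4G23493, a gene with no symbol, is the annotated gene next to SP1L5 on the side of the lower locus numbers. It had 626, 530 and 696 in chl1-12, against 292, 230 and 227 in chl1-5. No array of chl1-5 reached those of chl1-12, and the difference was 1.25 ± 0.15 (log2 ± SE, limma adjusted p = 0.00282), or 2.38-fold. Means were 617 ± 83.5 in chl1-12, 250 ± 36.8 in chl1-5 and 281 ± 27.8 in col (SD, n = 3 each). It was also higher in chl1-12 than in chl1-9, T101A, T101D and col, by 1.06 to 1.31 with limma adjusted p between 0.00126 and 0.00861.

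The other measured genes around SP1L5 were followed in locus order. Of 23 annotated genes in the stretch from AT4G23410 to AT4G23590, 13 were measured and 2 called. AT4G23490, the annotated gene before AT4G23493, averaged 378 ± 16.5 in chl1-12 and 272 ± 37.8 in chl1-5, a difference of 0.46 with an interval of 0.11 to 0.81 that did not pass after adjustment. AT4G23510, the first measured gene on the other side, differed by 0.11, with an interval of -0.14 to 0.36. At the far end AT4G23590 differed by 0.41 (interval 0.04 to 0.78), and the remaining 8 lay between -0.23 and 0.12. The elevation past the test thus covered SP1L5 and AT4G23493, and neither nearest measured neighbour passed. For none of the other named called genes was any of the 5 nearest measured genes on either side called, and their differences ranged from -0.43 to 0.80. This look at neighbours was chosen after the values of SP1L5 were known.

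**Figure D2:**
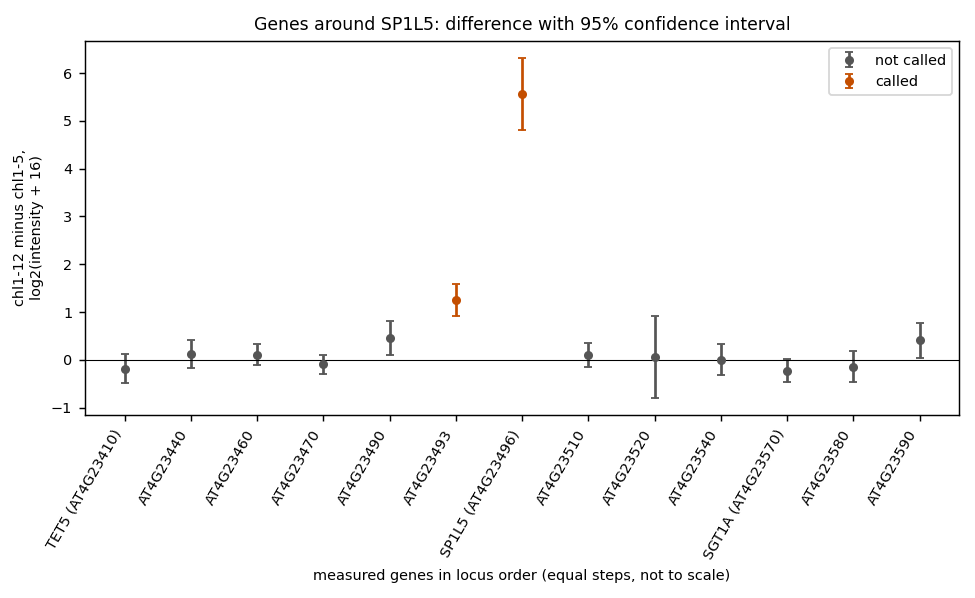
Difference between chl1-12 and chl1-5 on the log2(intensity + 16) scale (vertical axis), with 95% confidence intervals as bars, for the 13 measured genes around SP1L5 in locus order at equal steps (horizontal axis). SP1L5 lies at 5.56 and AT4G23493 at 1.25, while the other 11 lie between -0.23 and 0.46.

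Over the 18 arrays, the probe sets most like SP1L5 were AT4G23493 (Pearson r = 0.954), AT3G43680 (0.896) and AT4G29710 (0.842). All 3 correlations rest on chl1-12 standing apart from the other genotypes. The RefSeq table lists AT3G43680, on chromosome 3, as a pseudogene. Its intensities were low throughout, with 15.7, 14.4 and 23.9 in chl1-12, against 2.44, 2.41 and 4.404 in chl1-5. The 2 lines did not overlap, and the difference was 0.82 ± 0.13 (log2 ± SE, limma adjusted p = 0.03). The mean was 18.01 ± 5.18 in chl1-12, 3.08 ± 1.14 in chl1-5 and 6.04 ± 1.70 in col, and between 3.61 and 4.13 in the other 3 lines (SD, n = 3 each). This call was lost without chl1-12 replicate 1 (adjusted p = 0.0954) or 3 (0.166) and without chl1-5 replicate 1 (0.196), 2 (0.171) or 3 (0.0788). It was also lost in the fit with a replicate block (0.0582), with pseudocounts of 1 (0.17) and 64 (0.339), with an intensity trend (0.127) and in the fit of the 6 arrays alone (0.534). AT4G29710 averaged 7.85 ± 1.08 in chl1-12, 1.52 ± 1.31 in chl1-5 and 1.22 ± 0.43 in col, and its difference of 0.45 between the lines did not pass (adjusted p = 0.791).

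AT1G43590, also listed as a pseudogene and on chromosome 1, differed by genotype in more than 1 step. It had 96.7, 65.8 and 105 in chl1-12, against 23.4, 20.5 and 25.9 in chl1-5. The col arrays gave 3.36, 1.24 and 2.37, below every array of both lines. The difference between chl1-12 and chl1-5 was 1.40 ± 0.15 (log2 ± SE, limma adjusted p = 0.000558), or 2.65-fold. Means were 89.2 ± 20.8 in chl1-12, 23.3 ± 2.70 in chl1-5, 34.1 ± 6.27 in chl1-9, 3.58 ± 1.23 in T101A, 42.0 ± 9.41 in T101D and 2.32 ± 1.06 in col (SD, n = 3 each). chl1-12 was above each of the other genotypes, by 0.85 over T101D (adjusted p = 0.0278) up to 2.503 over col (adjusted p = 7.25e-07). chl1-5 was above col by 1.099 (adjusted p = 0.0011), and it did not differ past the test from chl1-9, T101A or T101D.

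The unnamed probe set 264348_at was low in both lines, and lower in chl1-5. The annotation used here does not say which gene it measures, and NRT1.1 is among the genes without a named probe set. It had 368, 294 and 377 in chl1-12, against 3.07, 2.24 and 29.0 in chl1-5. All 3 chl1-12 arrays were above the chl1-5 arrays and far below the col arrays of 7180, 6283 and 6322. The difference between the lines was 3.85 ± 0.24 (log2 ± SE, limma adjusted p = 8.2e-07). Because 2 of the chl1-5 arrays were under 16, its size depends on the pseudocount, and it was 5.56 with a pseudocount of 1 and 2.46 with one of 64. Means were 347 ± 45.5 in chl1-12, 11.4 ± 15.2 in chl1-5, 10858 ± 879 in chl1-9, 5394 ± 250 in T101A, 11742 ± 204 in T101D and 6595 ± 507 in col (SD, n = 3 each). Relative to col, it was lower by 4.19 in chl1-12 (adjusted p = 7.25e-07) and by 8.04 in chl1-5 (adjusted p = 8.21e-11). It was the 1 probe set called between chl1-5 and T101A.

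AT3G58060 (chromosome 3), which encodes a metal transporter that moves manganese and iron into the vacuole, was low in chl1-5 and near the wild-type level in chl1-12. Its intensities were 37.8, 41.7 and 49.2 in chl1-12, against 11.2, 5.44 and 6.66 in chl1-5. The chl1-12 arrays spanned nearly the same range as those of col, with 44.8, 39.3 and 35.2, and every chl1-5 array lay below both. The difference between the lines was 1.31 ± 0.20 (log2 ± SE, limma adjusted p = 0.03). All 3 chl1-5 values were under 16, and the difference was 2.37 with a pseudocount of 1 and 0.57 with one of 64, where it did not pass (adjusted p = 0.291). Against col, chl1-12 differed by 0.08 (adjusted p = 0.945) and chl1-5 by -1.24 (adjusted p = 0.00411). chl1-5 was also lower than chl1-9, by 1.55 (adjusted p = 0.00285), and than T101D, by 1.48 (adjusted p = 0.00517), while its difference of -1.17 from T101A did not pass (adjusted p = 0.118). The call between chl1-12 and chl1-5 was lost when any of the 6 arrays was left out, with adjusted p of 0.0954, 0.131 and 0.178 without chl1-12 replicate 1, 2 or 3 and 0.058, 0.171 and 0.147 without chl1-5 replicate 1, 2 or 3.

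**Figure D3:**
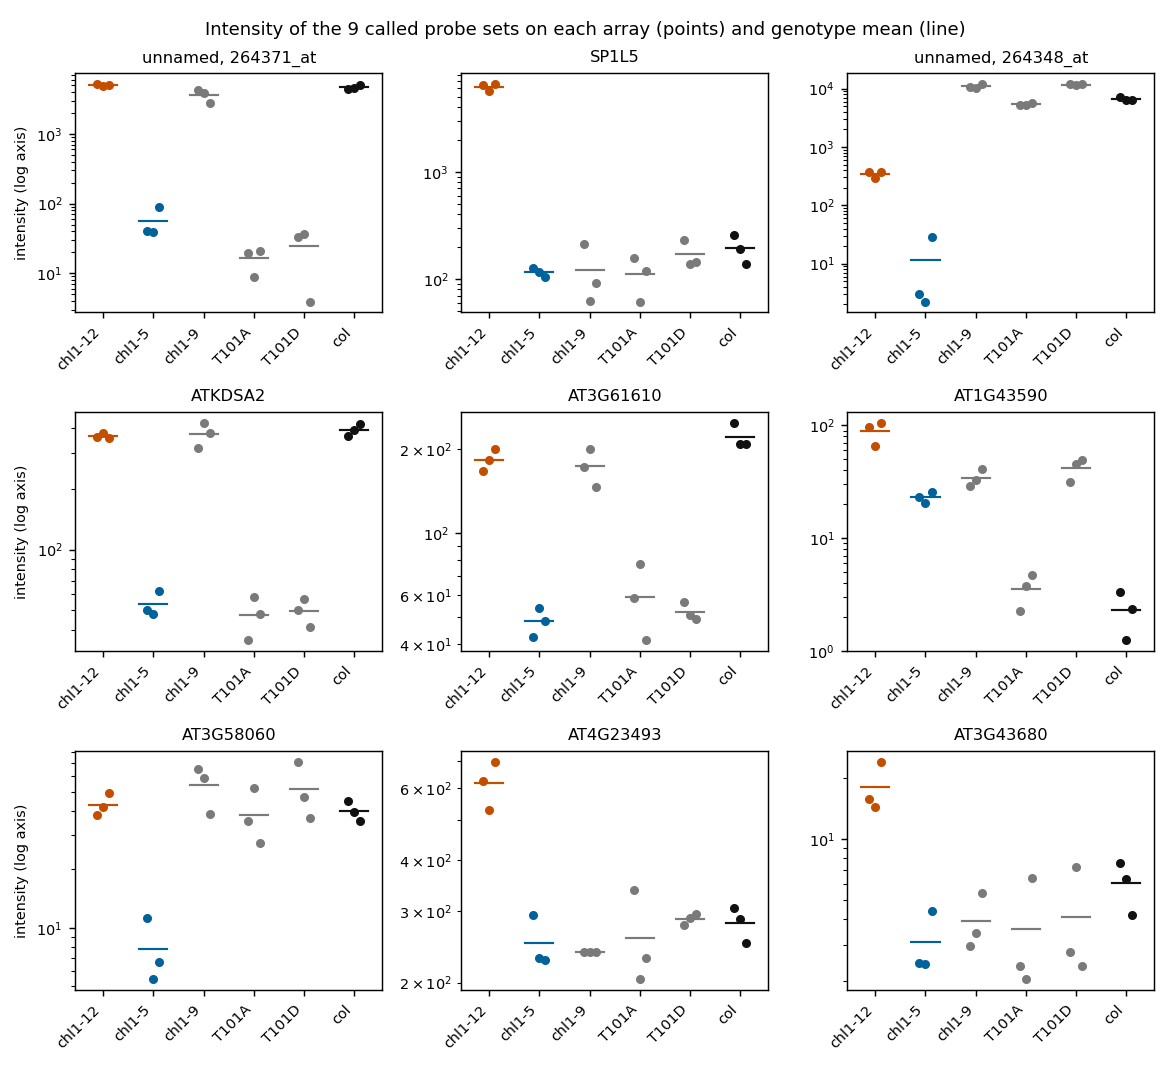
Intensity on each array (points, log axis, 3 per genotype) and the genotype mean (line) for the 9 probe sets called between chl1-12 and chl1-5. ATKDSA2, AT3G61610 and 264371_at are bright in chl1-12, chl1-9 and col, SP1L5 and AT4G23493 are bright in chl1-12, 264348_at is low in chl1-12 and chl1-5, and AT3G58060 is low in chl1-5.

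Beyond the 9, the 13 genes with the smallest unadjusted p are given as values, since none passed the test. The one with the largest difference, AT1G44510, is listed as a pseudogene. It had 107, 102 and 106 in chl1-12, against 19.2, 21.9 and 10.7 in chl1-5, and 7.38, 6.09 and 31.9 in col. The chl1-12 arrays stood apart from both, with a difference from chl1-5 of 1.88 ± 0.35 (log2 ± SE, limma adjusted p = 0.19). Against col, chl1-12 was higher by 2.05 (adjusted p = 0.00704) and chl1-5 differed by 0.18 (adjusted p = 0.892).

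Of the same 13, 8 had lower values in chl1-12. AT1G26800, a RING ubiquitin ligase gene, had 155, 194 and 238 in chl1-12, against 330, 436 and 404 in chl1-5. The col arrays, at 186, 197 and 266, spanned much the same range as those of chl1-12. The difference between the lines was -0.95 ± 0.18 (log2 ± SE, limma adjusted p = 0.197), and chl1-5 was higher than col by 0.81 (adjusted p = 0.0305). AT1G64500, which encodes the actin-bundling protein THRUMIN1, showed a like order of levels, with 199 ± 19.97 in chl1-12, 289 ± 28.5 in chl1-5 and 201 ± 26.7 in col (SD, n = 3 each). Its difference between the lines was -0.50 (adjusted p = 0.452), and chl1-5 exceeded col by 0.50 (adjusted p = 0.0265). The others were AT2G31730, a bHLH gene, at -0.70, AT3G55680 at -1.13, AT2G45610 at -1.02, AT5G51390 at -0.71, AT2G17160 at -0.84 and AT5G58800 at -0.36, with adjusted p between 0.452 and 0.966. Of these 6, AT2G17160 passed against col in chl1-5, at 0.86 (adjusted p = 0.0467), with 15.3 ± 5.24 in chl1-5 and 1.08 ± 0.44 in col (SD, n = 3 each).

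The remaining 4 had higher values in chl1-12. AT2G20150 averaged 22.9 ± 7.22 in chl1-12, 3.56 ± 1.07 in chl1-5 and 32.9 ± 6.39 in col (SD, n = 3 each). It differed by 0.98 between the lines (limma adjusted p = 0.544), and chl1-5 was lower than col by 1.31 (adjusted p = 0.00518). AT1G68400, a leucine-rich repeat kinase gene, differed by 0.56, AT5G15680 by 0.41 and AT4G29710 by 0.45, with adjusted p between 0.452 and 0.791.

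Genes that act with NRT1.1 in nitrate transport and sensing were then set side by side in the 2 lines. No measured member of any such list differed between them past the test. Over all probe sets 0.0396% were called, so lists of this size would mostly hold none, and this is no trait of these genes. Of 42 nitrate transporter genes 15 had a named probe set, and their differences had a median of 0.01, from -0.18 for AT2G37900 to 0.60 for AT3G25260. For 13 of the 15 the 95% interval lay within a 2-fold difference either way on the log2(intensity + 16) scale. AT1G59740, a transporter of the NPF family, averaged 155 ± 24.98 in chl1-12, 151 ± 10.2 in chl1-5 and 273 ± 28.8 in col (SD, n = 3 each). It was lower than col by 0.76 in chl1-12 (limma adjusted p = 0.0116) and by 0.79 in chl1-5 (adjusted p = 0.00766), and the lines differed from each other by 0.03, with an interval of -0.27 to 0.33. AT2G26690, known as NRT1.4, a nitrate transporter of the leaf stalk, averaged 214 ± 48.1 in chl1-12, 190 ± 17.6 in chl1-5 and 328 ± 15.7 in col (SD, n = 3 each). Its difference between the lines was 0.14, with an interval of -0.18 to 0.47, and it passed against col in chl1-5 (adjusted p = 0.0193) but not in chl1-12 (adjusted p = 0.0712).

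Of 32 genes of nitrate signalling or induction by nitrate 10 were measured, with a median difference of -0.07 between the lines and all 10 intervals within a 2-fold difference. AT4G32950, a type 2C protein phosphatase gene, had 417, 325 and 296 in chl1-12, against 546, 479 and 316 in chl1-5 and 37.0, 36.2 and 28.2 in col. Both lines were far above col on every array and overlapped each other, with a difference between them of -0.34 and an interval of -0.80 to 0.12. HHO1 (AT3G25790), a repressor of nitrogen-response genes, averaged 241 ± 32.6 in chl1-12, 241 ± 15.3 in chl1-5 and 424 ± 81.9 in col, and the difference between the lines was -0.01 with an interval of -0.32 to 0.31. Its relative HHO3 (AT1G25550) averaged 540 ± 12.2 in chl1-12, 590 ± 51.9 in chl1-5 and 821 ± 29.9 in col. HHO2 (AT1G68670) averaged 552 ± 10.6 in chl1-12, 634 ± 11.7 in chl1-5 and 690 ± 55.0 in col (SD, n = 3 for each gene and genotype). For HHO2 the interval of the difference between the lines, -0.38 to -0.01, did not include 0, yet its adjusted p was 0.999756.

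CC-type glutaredoxins, some of which travel from shoot to root as signals of nitrogen demand, had 17 of 21 genes measured. The median difference between the lines was -0.10, and 13 intervals lay within a 2-fold difference. AT1G06830 (CEPD1), one of the travelling members, averaged 241 ± 38.0 in chl1-12, 308 ± 103 in chl1-5 and 88.6 ± 21.1 in col. AT4G33040 averaged 591 ± 74.5 in chl1-12, 559 ± 91.3 in chl1-5 and 290 ± 34.7 in col (SD, n = 3 each). Differences between the lines were -0.29 for the first, with an interval of -0.93 to 0.36, and 0.08 for the second, with an interval of -0.21 to 0.38. Against col, 3 members were higher in chl1-12, against 0.941% of all probe sets, and 3 in chl1-5, against 1.35%, and none was lower in either line. AT1G06830 and AT4G33040 passed in both. AT5G11930 passed in chl1-12 (limma adjusted p = 0.0467) and not in chl1-5 (0.217), and AT3G62960 in chl1-5 (0.0407) and not in chl1-12 (0.349). Between the lines AT5G11930 differed by 0.39 (interval -0.15 to 0.92) and AT3G62960 by -0.59 (interval -1.31 to 0.12). Neither passed, so no difference between the lines is shown for them.

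A set of 17 genes is known from earlier results of these arrays to differ strongly from col in both lines. That choice fixes their distance from col and favours like levels in chl1-12 and chl1-5, so their values are a description and no measure of how alike the lines are. The difference between the lines had a median of -0.02 and ranged from -0.66 to 0.76, and 12 of the 17 intervals lay within a 2-fold difference. QQS, a gene that shifts the balance between starch and protein, had 41.9, 24.7 and 94.3 in chl1-12, against 54.9, 48.5 and 69.6 in chl1-5 and 883, 739 and 831 in col. The lines overlapped each other, and the interval of their difference was -0.77 to 0.38. The lipid-transfer-like gene AT4G12500 had 1364, 1157 and 731 in chl1-12, against 1232, 1081 and 1031 in chl1-5 and 108, 99.1 and 72.7 in col. Its chl1-5 arrays lay within the span of the chl1-12 arrays, and the interval was -0.53 to 0.37.

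OCT1, an organic cation and carnitine transporter gene, averaged 1013 ± 79.3 in chl1-12, 1266 ± 247 in chl1-5 and 317 ± 142 in col (SD, n = 3 each), with an interval of -0.92 to 0.31 for the difference between the lines. FMO (AT1G12200), a flavin monooxygenase gene, averaged 1284 ± 80.2 in chl1-12, 1306 ± 178 in chl1-5 and 768 ± 13.8 in col, with an interval of -0.26 to 0.23. For these 2 genes as well, both lines lay above every col array. Among genes at low levels, the berberine-bridge-like oxidoreductase gene AT1G26410 had 42.3, 41.4 and 43.7 in chl1-12, against 29.4, 27.4 and 4.96 in chl1-5 and 172, 192 and 181 in col. It was the 1 of the 17 with an unadjusted p under 0.05, and its difference of 0.76 did not pass (limma adjusted p = 0.999756). Its relatives AT1G26390 and AT1G26380 differed between the lines by 0.38 and 0.00, with wide intervals of -0.71 to 1.46 and -0.86 to 0.86. For both, the interval reaches close to a 2-fold difference or beyond it.

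**Figure D4:**
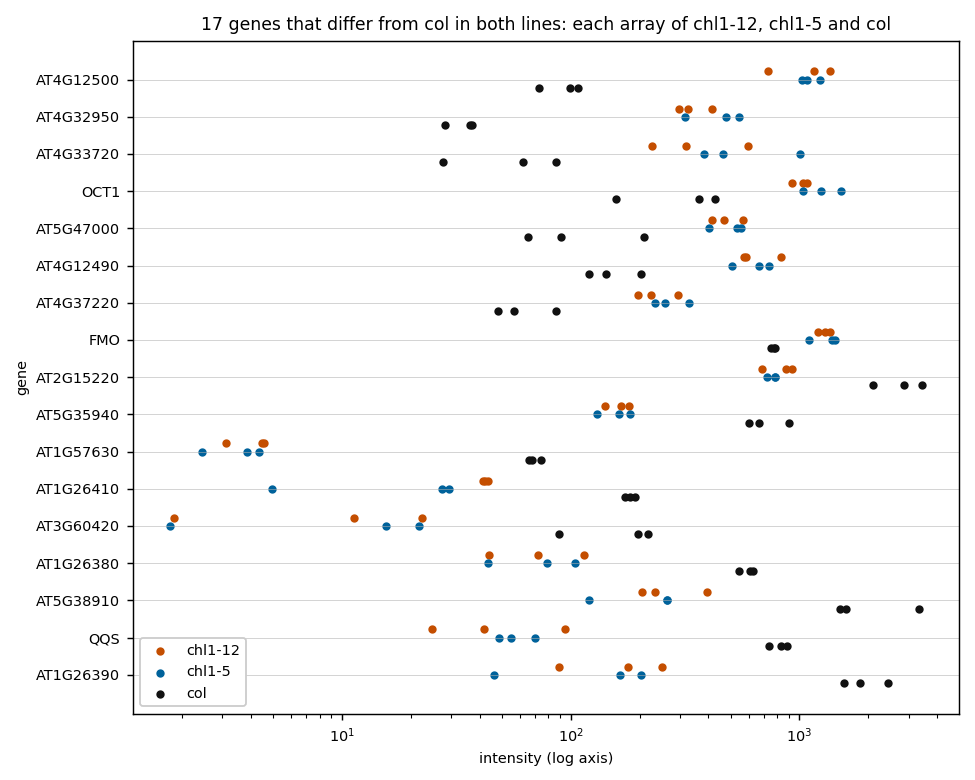
Intensity (horizontal log axis) on each of the 3 arrays of chl1-12, chl1-5 and col for 17 genes chosen because they differ from col in both lines. The chl1-12 and chl1-5 points overlap for all genes but AT1G26410, where chl1-12 lies at 41.4 to 43.7 and chl1-5 at 4.96 to 29.4, and the col points stand apart.

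Lists for other root functions also gave few calls. They are read here and below beside the 0.0396% of all probe sets called, at which most lists would hold none. Of 28 iron and manganese genes 6 were measured and 1 was called, AT3G58060, with a list median of 0.03. Differences ranged from -0.41 for BHLH101 (interval -0.86 to 0.03) to 1.31 for AT3G58060, and 4 of the 6 were above 0. PYE, a regulator of the iron response, differed by 0.01 (interval -0.26 to 0.29). AT3G13610, which encodes a hydroxylase in the synthesis of the coumarin scopoletin, differed by 0.04 (interval -0.34 to 0.42). Differences of root hair markers had a median of -0.10 over 7 measured of 22 genes, and the peroxidase gene AT3G49960 averaged 1267 ± 195 in chl1-12, 1292 ± 139 in chl1-5 and 601 ± 101.3 in col (SD, n = 3 each). Summed over the 7 markers, intensity was 7639 to 8714 in chl1-12, 8239 to 9880 in chl1-5 and 4848 to 6012 in col. With these arrays, a change in the number of cells of a type and a change in RNA per cell cannot be told apart.

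Of 23 defence genes 12 were measured and none was called between the lines, with a median of 0.04 and a range from -0.66 for the PR-1-like gene AT4G33720 to 0.76 for AT1G26410. Most of these 12, both ends of the range included, are also among the 17 genes chosen for their distance from col. That choice favours like levels in the lines, so this list is no separate measure of how alike they are. Of 23 low oxygen genes 11 were measured and none called, with a median of -0.09. AT4G39675 of that list averaged 171 ± 18.2 in chl1-12, 229 ± 14.0 in chl1-5 and 697 ± 274 in col (SD, n = 3 each), and passed against col in chl1-12 (limma adjusted p = 0.0163) but narrowly not in chl1-5 (adjusted p = 0.0501). The difference between the lines was -0.39, with an interval of -1.17 to 0.39. In the auxin list 6 of 22 genes were measured. DAO1 (AT1G14130), which oxidises auxin, averaged 891 ± 46.5 in chl1-12, 743 ± 31.8 in chl1-5 and 429 ± 16.1 in col, and its difference of 0.26 between the lines, with an interval of 0.05 to 0.46, did not pass after adjustment (adjusted p = 0.999756).

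Larger gene families were read in the same way, beside the 0.0396% called over all probe sets. Of UGT glycosyltransferases 47 were measured, with a median of -0.05, and none was called. The lowest member was UGT84A1, which glucosylates hydroxycinnamic acids, with 154 ± 59.8 in chl1-12, 293 ± 43.7 in chl1-5 and 356 ± 58.4 in col (SD, n = 3 each). Its difference between the lines was -0.92, with an interval of -1.44 to -0.41, and did not pass (limma adjusted p = 0.966). Against col it passed in chl1-12, at -1.19 (adjusted p = 0.0209), and not in chl1-5, at -0.26 (adjusted p = 0.706). None of 14 SWEET sugar transporters, 23 cytochromes P450, 12 glutathione transferases, 9 xyloglucan endotransglucosylases, 18 expansins or 10 RALF-like peptides was called, and their medians lay between -0.11 and 0.03. The glucosinolate, sulfur and cytokinin lists had 2 measured members each, of which none was called. No member of the lists for nitrogen assimilation, phosphate starvation, endodermis and stele or the mitochondrial genome had a named probe set, and these are not analysed here.

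Markers of green tissue were followed because shoot material could have entered the root samples. Of 16 markers 5 were measured, none was called, and all 5 differences were below 0, with a median of -0.24. Summed intensity was 1522 to 2662 in chl1-12, 1895 to 2651 in chl1-5 and 2101 to 3133 in col, so the 3 genotypes overlapped. RCA, the activase of Rubisco, averaged 1315 ± 353 in chl1-12, 1539 ± 254 in chl1-5 and 1660 ± 329 in col (SD, n = 3 each). Genes of the plastid genome leaned the other way, with 60 of 69 measured genes above 0. Their median was 0.19, against -0.0018 over all probe sets, but none was called and 25 intervals lay within a 2-fold difference. The 69 genes were read on the same arrays and are not separate observations, so the count is a description. Their summed intensity was 57893 to 74698 in chl1-12, 57013 to 63057 in chl1-5 and 61402 to 68729 in col. In chl1-9 it spanned 19404 to 71965. The fit shares 1 estimate of spread over all genotypes, so the spread in chl1-9 widens the intervals for chl1-12 against chl1-5. Whether these shifts bear on the 9 called probe sets was not tested.

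**Figure D5:**
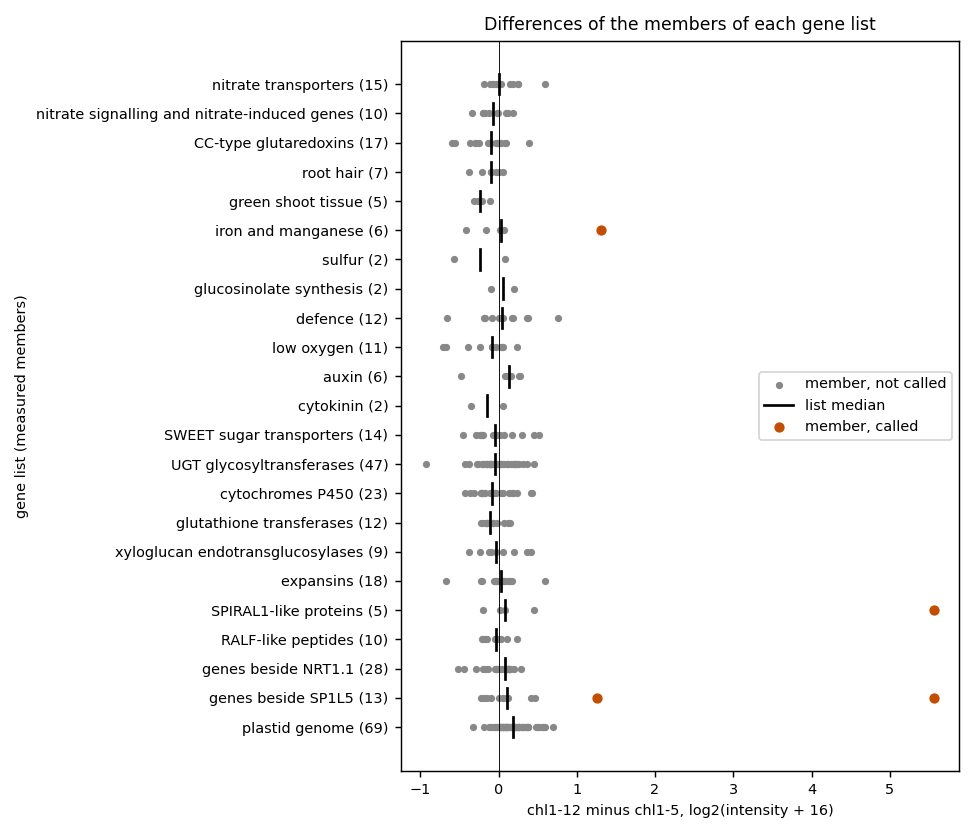
Difference between chl1-12 and chl1-5 on the log2(intensity + 16) scale (horizontal axis) for every measured member of each gene list (rows, number measured in parentheses), with the list median as a bar and called members in orange. AT3G58060 at 1.31, SP1L5 at 5.56 and AT4G23493 at 1.25 are the called members, and list medians lie between -0.24 and 0.19.

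The genes around NRT1.1 were read because chl1-5 is known as a deletion. Of 50 annotated genes from AT1G11900 to AT1G12290, 28 were measured. None was called between chl1-12 and chl1-5, against 0.0396% of all probe sets. Their differences had a median of 0.09 and ranged from -0.52 for AT1G12150 to 0.29 for AT1G11940, and 27 of 28 intervals lay within a 2-fold difference. AT1G12120, the annotated gene just after NRT1.1, averaged 873 in chl1-12, 820 in chl1-5 and 931 in col. The difference between the lines was 0.09. The annotation used here gives no position for the unnamed probe sets 264371_at and 264348_at, and whether either lies in this stretch is not known. Genes of the stretch without a named probe set, NRT1.1 among them, were not read, so the extent of the deletion was not tested. By chromosome, the 7 called probe sets with a single gene were 2 of 3451 on chromosome 1, 3 of 2746 on chromosome 3 and 2 of 1962 on chromosome 4, with none on chromosomes 2 and 5.

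How small a difference these arrays could show depended on the level. The 95% interval of the difference between the lines lay within a 2-fold difference either way for 20589 probe sets, or 90.5%. Split by level into 4 equal groups, the share was 72.5% in the dimmest, with a median intensity of 9.79, and 99.1% in the brightest, with a median intensity of 1230. The median standard error of the difference was 0.28 in the dimmest group and 0.11 in the brightest. For a dim gene that did not pass, a change of more than 2-fold is therefore often within the interval.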

How the data were processed

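Per the labels' protocols, root RNA of 6 genotypes was hybridised to 18 Affymetrix arrays, and the authors deposited 1 table of intensity values on a linear scale for 22810 probe sets. After trimming 2% of the probe sets at each end, the mean of every array is 500, which shows how the arrays were scaled. How probes were summarised and background was corrected is not given in the sources used here. Leaving out 64 control probe sets, 22746 entered the test, on the scale of log2(intensity + 16). limma 3.58.1 in R 4.3.3 fitted 1 coefficient per genotype over all 18 arrays, with empirical Bayes moderation and Benjamini-Hochberg adjustment per comparison, and the threshold for a call was an adjusted p of 0.05. All adjusted p-values and 95% intervals come from this fit. Python 3.11.15, pandas 2.3.3 and matplotlib 3.10.9 made tables and plots. Array number limits the precision, and sequencing depth has no counterpart here.

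The platform annotation gave 1 gene for 13513 probe sets, several for 503 and none for 8730. Of the first, 13436 were matched to the RefSeq table of assembly TAIR10.1, used for symbols, gene type, order and chromosome. Where a gene had several probe sets, lists used the brightest. Genes named by rule were all called ones, the unadjusted top of the rest until 20 were named, and called list members. Uncalled list members given with values are examples that this rule did not choose. The comparison, the gene lists and the 17 genes that differ from col were chosen with earlier results of these data known. The fit was tested on simulated data for chl1-12 against chl1-5 over 22746 probe sets. Changes of 0.5, 1 and 2 were given to 67, 67 and 66 probe sets, and 34.3%, 73.1% and 97.0% of these were called. Of the unchanged probe sets, 5 were called. More calls make the adjustment less strict, and the real comparison had 9, so these shares may be too high for it. Deviations of same-numbered arrays of the 2 lines correlated at 0.142, 0.0267 and 0.057, and those of arrays with different numbers at -0.109 to 0.057. The main fit did not take the numbers to pair the samples, and a shared effect of the replicate number is not excluded. The 17 alternatives covered the pseudocount, dim probe sets, normalization, the arrays fitted, the variance model, a replicate block and leaving arrays out.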

Additional observations from a re-analysis of the deposited data

How the results depend on the processing

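The count of 9 called probe sets, all higher in chl1-12, stayed within 1.5 times under 16 of 17 alternatives. It was 4 when only probe sets above the median level were tested, which leaves 11373 probe sets and removes 5 of the 9 by construction. Leaving out 1 of the 6 arrays gave 7 to 9. The replicate block gave 8, the 9 without AT3G43680 (limma adjusted p = 0.0582), and pseudocounts of 1 and 64 gave 8 each. Leaving out chl1-9 replicate 3 gave 12, which include all 9, and fitting the 6 arrays alone gave 6, of which 4 are among the 9. In these 2 fits and in the 3 without a chl1-5 array, 1 call was lower in chl1-12. 264371_at, SP1L5, ATKDSA2 and AT3G61610 kept their calls under every alternative that tested them. 264348_at, AT1G43590 and AT4G23493 lost theirs only in the fit of 6 arrays (limma adjusted p = 0.083, 0.232 and 0.232). AT3G58060 lost its call under 9 of 16 alternatives, with adjusted p between 0.00543 and 0.291 over all 16, and AT3G43680 under 10 of 15, between 0.00689 and 0.534. AT1G44510 passed under 3 alternatives, with a pseudocount of 64 (0.00412), the 6 arrays alone (0.0356) and without chl1-9 replicate 3 (0.0337). No difference of a named gene reversed. The cause of these shifts was not tested, apart from the filter on level. The brightness of a probe set limits what can be seen, as dim ones have wide intervals.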

Other observations

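One unnamed probe set was lower in chl1-12 under 2 alternatives and was noticed after its values were seen. 257012_at averaged 3.84 in chl1-12 and 38.4 in chl1-5, a difference of -1.46 on the log2(intensity + 16) scale. Its limma adjusted p was 0.452 in the fit over 18 arrays, 0.0356 with the 6 arrays alone and 0.00426 without chl1-9 replicate 3.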
